A study of Homo sapiens with 5 samples.

Results

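The genes described here are 8 transcription factors of the epithelial to mesenchymal transition (EMT): TWIST1, TWIST2, ZEB2, FOXQ1, SNAI2, PRRX1, RUNX2 and SOX4. They were taken by gene symbol from 14916 named genes measured on 5 Affymetrix arrays, and all 8 were found, each with 1 probe set. RNA came from 5 lines of HMLE, mammary epithelial cells of human origin that were immortalised, at 1 array per line. The control line, HMLE/LACZ, carried the bacterial reporter gene LACZ, and the other lines, HMLE/FOXQ1, HMLE/SNAI1, HMLE/TWIST1 and HMLE/ZEB2, each overexpressed the factor in their name. No line was treated further. The labels give neither the vector, nor the promoter that drove each factor, nor whether a line was 1 clone or a pool. The study compared the lines to find what the EMT models had in common.

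In EMT, epithelial cells lose their junctions and polarity and take on features of mesenchymal cells. Factors of the SNAI, ZEB and TWIST families drive the change, in large part by repressing epithelial genes through E-box motifs, and they are known to regulate one another. ZEB2 is also held down by microRNAs of the miR-200 family, which epithelial cells express and which ZEB factors repress in turn. The question addressed here was whether a line made with 1 factor also carried more RNA of the others.

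The deposited values are read as log2 levels, and a difference means the level on a factor array less that on LACZ. A gene is called higher or lower when this difference is at least 1, which is 2-fold if the base is 2, and the brighter of the pair reaches the floor, a level of 4.72 that is the median level of named genes. Each line and its array are called by the name of the factor. This is a rule of size and not a test: with 1 array per line there is no replicate error, and no p-values are given. All 4 differences share the LACZ array, so they are not independent. In RNA from whole cultures, fewer cells with a transcript and less of it per cell cannot be told apart. All 7 measured mammary epithelial markers reached the floor on LACZ. As the floor is only a median level, this does not show HMLE origin, which rests on the sample titles. FOXQ1, TWIST1 and ZEB2 were each highest on the line named for them, whereas the SNAI1 gene was not analysed here. The excess over the next factor line was 2.62 for FOXQ1. For TWIST1 and ZEB2 it was 0.78 and 0.36, under 2-fold, so their levels are a weak check of the overexpression label.

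Sequences upstream of 4 of the genes are shown because they differ in how their RNA behaved: ZEB2 was higher on all 4 factor arrays, RUNX2 on 2, FOXQ1 on its own array, and SOX4 on none. Each is the 250 bases before the RefSeq start on GRCh38.p14, written 5′ to 3′ on the strand of the gene. The windows are chr2:144520120-144520369 on the minus strand for ZEB2, and chr6:45328080-45328329 for RUNX2, chr6:1311848-1312097 for FOXQ1 and chr6:21593501-21593750 for SOX4 on the plus strand. Capitals mark the E-box CANNTG in ZEB2, FOXQ1 and SOX4, and the RUNX motif ACCACA or its reverse complement TGTGGT in RUNX2.
ZEB2: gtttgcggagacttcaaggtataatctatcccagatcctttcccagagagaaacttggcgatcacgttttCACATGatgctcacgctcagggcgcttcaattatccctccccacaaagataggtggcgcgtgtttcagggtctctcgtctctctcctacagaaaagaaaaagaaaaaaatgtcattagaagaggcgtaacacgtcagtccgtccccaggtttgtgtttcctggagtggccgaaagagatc
RUNX2: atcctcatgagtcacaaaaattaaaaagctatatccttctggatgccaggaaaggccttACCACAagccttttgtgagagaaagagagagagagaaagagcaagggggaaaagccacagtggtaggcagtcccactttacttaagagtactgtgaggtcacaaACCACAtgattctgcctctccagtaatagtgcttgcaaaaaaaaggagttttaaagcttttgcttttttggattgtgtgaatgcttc
FOXQ1: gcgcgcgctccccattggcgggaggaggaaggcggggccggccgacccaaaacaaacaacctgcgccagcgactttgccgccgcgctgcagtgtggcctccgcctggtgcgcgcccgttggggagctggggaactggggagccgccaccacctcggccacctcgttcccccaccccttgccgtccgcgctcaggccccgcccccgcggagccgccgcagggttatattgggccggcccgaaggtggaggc
SOX4: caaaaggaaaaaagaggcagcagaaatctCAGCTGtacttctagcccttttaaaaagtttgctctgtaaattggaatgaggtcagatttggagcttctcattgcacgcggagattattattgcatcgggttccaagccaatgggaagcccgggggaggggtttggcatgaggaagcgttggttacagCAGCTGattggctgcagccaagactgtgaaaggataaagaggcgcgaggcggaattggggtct

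The ZEB2 window held 1 E-box, SOX4 held 2, and FOXQ1 held 0. The pattern CANNTG is its own reverse complement, so an E-box is found from either strand. Of 35116 RefSeq promoter windows of this length, 61.8% held at least 1. The narrower forms CAGGTG and CACCTG, reverse complements of each other and the forms favoured by ZEB and SNAI proteins, were in 0 of the 4 windows and in 17.5% of all windows. The RUNX2 window shown, that of the first of 2 starts in the table, held ACCACA 2 times, a motif that with its complement was in 11% of windows, and it also held 1 E-box, which overlaps an ACCACA. The window of the other RUNX2 start, chr6:45422025-45422274, held 0 RUNX motifs and 2 E-boxes. These matches describe letters in a window and do not show binding. In all, windows were read for 6 of the 8 genes. Those of PRRX1, which was higher on all 4 factor arrays as ZEB2 was, and of TWIST2, called on none, each held 0 E-boxes. A relation between E-boxes and RNA level was not tested. TWIST1 had no entry in the promoter table, and SNAI2 was left out of this reading.

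The miR-200 family members that lie together on chromosome 1 are shown because ZEB2 is their best known target. Their mature sequences from RefSeq (GRCh38.p14) are given with the seed, bases 2 to 8, in capitals.
miR-200b-3p: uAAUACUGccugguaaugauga
miR-429: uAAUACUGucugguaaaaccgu
miR-200a-3p: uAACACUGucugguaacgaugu

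The first 2 share the seed AAUACUG, and miR-200a-3p has AACACUG. The sites of their genes are chr1:1167160-1167181, chr1:1169055-1169076 and chr1:1167916-1167937, all on the plus strand. The array probe sets named for these genes stayed below the floor on all 5 arrays, with MIR200B between 3.57 and 4.07, MIR429 between 2.88 and 3.58, and MIR200A between 3.28 and 4.09. Their largest difference from LACZ in size was 0.58, for MIR429 on the SNAI1 array. Probe sets of gene loci need not measure the mature microRNA, so no order of miR-200 levels between the lines can be read from them.

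Of the 8 EMT factor genes, 4 were called higher on the FOXQ1 array, 4 in SNAI1, 5 in TWIST1 and 3 in ZEB2. The same call was made for 6.54% of all named genes on FOXQ1, 4.26% in SNAI1, 7.27% in TWIST1 and 6.4% in ZEB2. A lower call was made for 1 of the 8, on FOXQ1, where 6.98% of all genes were called lower, and for 0 in SNAI1, TWIST1 and ZEB2, where the shares were 8.02%, 4.22% and 4.32%. TWIST1, ZEB2 and PRRX1 were called higher on all 4 factor arrays, as were 2.17% of all genes. The median differences of the 8 were 1.38, 1.01, 1.77 and 0.39 in the FOXQ1, SNAI1, TWIST1 and ZEB2 lines, against 0, -0.09, 0 and 0 over all genes. Since the 8 genes were chosen with their values known, these shares describe them and do not test them.

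**Figure D1:**
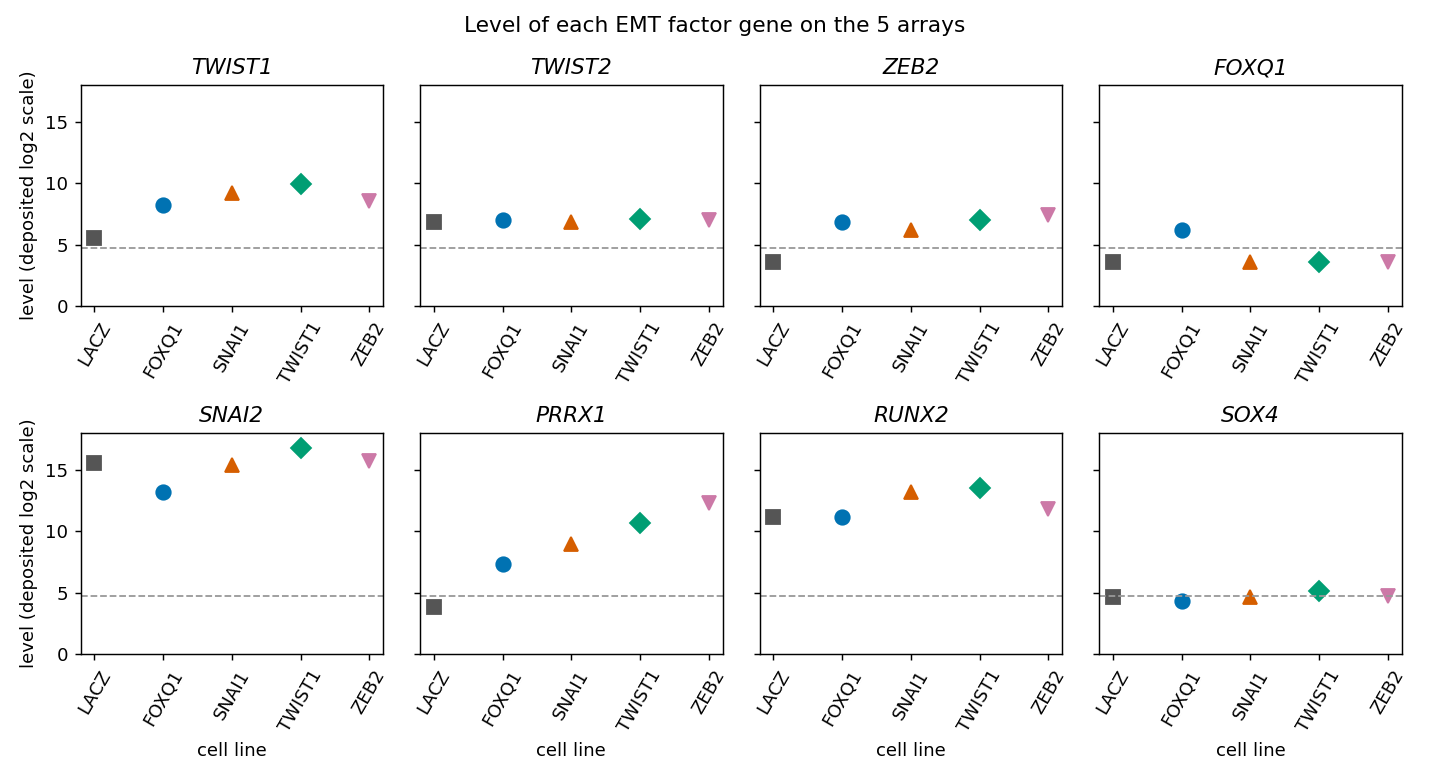
Level of each EMT factor gene (y axis, deposited log2 scale) on the 5 arrays (x axis, cell line), 1 point per array, with the level floor of 4.72 as a dashed line. TWIST1, ZEB2 and PRRX1 lie above their LACZ value on all 4 factor arrays, FOXQ1 is raised only on its own array (6.23), and TWIST2 lies between 6.82 and 7.1 on all 5.

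Leaving out each line's own factor, 3 of 7 genes were called higher and 1 lower on FOXQ1, 4 of 7 higher on TWIST1 and 2 of 7 higher on ZEB2. Among FOXQ1, TWIST1 and ZEB2, the 3 overexpressed factors that were measured, there are 9 pairs of a factor and another factor's line. The factor was called higher than on LACZ in 6 of these 9 pairs. All 6 were TWIST1 or ZEB2, and FOXQ1 was called in 0 of its 3 pairs. Over all genes, 6.54%, 4.26%, 7.27% and 6.4% were called higher in the FOXQ1, SNAI1, TWIST1 and ZEB2 lines, and 6.98% lower on FOXQ1. These genes were chosen with their values known, so the counts describe them and do not test them.

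TWIST1, a basic helix-loop-helix factor of mesoderm and neural crest, lies on GRCh38.p14 chromosome 7 from 19113047 to 19117636. Its level was 5.55 in LACZ, 8.2 in FOXQ1, 9.18 in SNAI1, 9.96 in TWIST1 and 8.55 in ZEB2. Every factor array was thus above LACZ, by 2.65 in FOXQ1, 3.63 in SNAI1, 4.41 in TWIST1 and 3 in ZEB2. Its own line had the highest level, but by only 0.78 over the SNAI1 line, which is under 2-fold. From the highest to the lowest, the factor arrays were separated by steps of 0.78, 0.63 and 0.35, so no neighbours in the order TWIST1, SNAI1, ZEB2 and FOXQ1 differed by 2-fold, while the first and the last differed by 1.76. The mean difference on the other 3 lines was 70.1% of that on the TWIST1 line, on the log2 scale.

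ZEB2, a zinc finger and homeodomain repressor of epithelial genes, lies on chromosome 2 from 144384081 to 144520119. Its level was 3.57 in LACZ, below the floor, and 6.85 in FOXQ1, 6.23 in SNAI1, 7.03 in TWIST1 and 7.39 in ZEB2. The 4 factor arrays lay within 1.16 of each other and all were at least 2.66 above LACZ. The ZEB2 line exceeded the TWIST1 line by 0.36, and both lay above the floor. Because the LACZ value lies below it, differences from LACZ, such as 3.82 in ZEB2, are not exact ratios. ZEB2-AS1, the antisense transcript that overlaps the start of ZEB2, was below the floor throughout, at 3.87 in LACZ and between 4.14 and 4.2 in the 4 factor lines. Whether the ZEB2, TWIST1 and FOXQ1 probes lie in the parts carried by the constructs is not known here, so transgene and endogenous RNA cannot be told apart on the lines named for them.

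FOXQ1, a forkhead factor, lies on chromosome 6 from 1312098 to 1314758 and was called on its own array only. Its level was 3.6 in LACZ, 6.23 in FOXQ1, 3.61 in SNAI1, 3.56 in TWIST1 and 3.58 in ZEB2. Only the FOXQ1 array reached the floor, so its excess over the other 4 arrays is not an exact ratio. The differences on SNAI1, TWIST1 and ZEB2 were 0.01, -0.04 and -0.02, too small for their sign to be read. Values below the floor are not put in order here, and the floor is a median level and not a measured detection limit. Whether FOXQ1 changed below it is therefore not known.

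PRRX1, a homeobox factor of limb and craniofacial mesenchyme, lies on chromosome 1 from 170662768 to 170739421 and had the widest range of the 8. Its level was 3.84 in LACZ, 7.36 in FOXQ1, 8.94 in SNAI1, 10.71 in TWIST1 and 12.3 in ZEB2. Every neighbouring pair in this order differed by more than 2-fold, with steps of 3.52, 1.58, 1.77 and 1.59. The differences from LACZ were 3.52, 5.1, 6.87 and 8.46, and they were exceeded by 108, 36, 13 and 6 of the 14916 genes in the FOXQ1, SNAI1, TWIST1 and ZEB2 lines. Over the 5 arrays, 27 genes had a wider range than the 8.46 of PRRX1. The LACZ value lies below the floor, so these differences are not exact ratios and their ranks are approximate. Neither overexpressed TWIST1 nor ZEB2 had its highest array 2-fold above the next, whereas PRRX1, which no line was made to overexpress, was 1.59 higher on ZEB2 than on TWIST1.

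**Figure D2:**
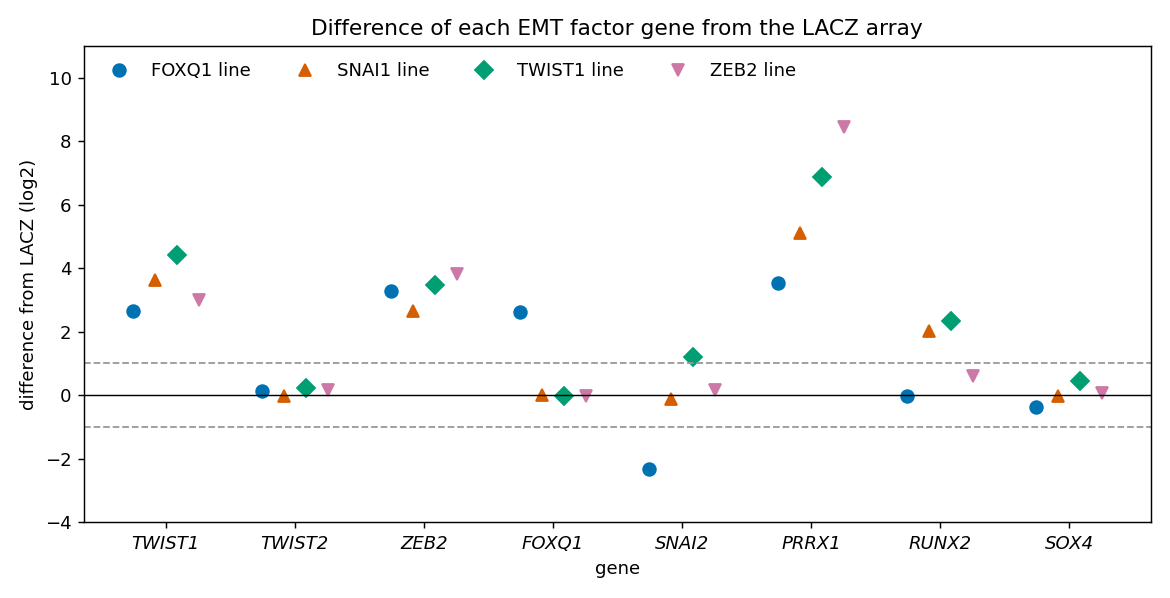
Difference of each EMT factor gene from the LACZ array (y axis, log2) on the 4 factor arrays, 1 point per array, with dashed lines at 1 and -1. PRRX1 spreads from 3.52 to 8.46, TWIST1 and ZEB2 stay between 2.65 and 4.41, and SNAI2 has points on both sides, at -2.33 in FOXQ1 and 1.2 in TWIST1.

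SNAI2, a zinc finger repressor also known as Slug that basal mammary cells express, lies on chromosome 8 from 48917598 to 48921429. Its level was 15.55 in LACZ, 13.22 in FOXQ1, 15.43 in SNAI1, 16.75 in TWIST1 and 15.72 in ZEB2. It was thus well above the floor in the control and in every EMT line. The FOXQ1 array was the low one, at -2.33 from LACZ, where 266 of 14916 genes had a more negative difference. The TWIST1 array was the high one, at 1.2, and SNAI1 and ZEB2 lay at -0.12 and 0.17, with the SNAI1 value at 0.07 after quantile normalization. The step from SNAI1 down to FOXQ1 was 2.21 and that from TWIST1 down to ZEB2 was 1.03. A call in opposite directions on at least 2 factor arrays was made for 0.697% of all genes, and SNAI2 was the only such gene among the 8.

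RUNX2, a runt domain factor and master regulator of bone-forming cells, lies on chromosome 6 from 45328330 to 45551082. Its level was 11.2 in LACZ, 11.18 in FOXQ1, 13.22 in SNAI1, 13.54 in TWIST1 and 11.81 in ZEB2. SNAI1 and TWIST1 formed the high pair, 0.32 apart, and both were called higher than LACZ, by 2.02 and 2.34. ZEB2, at 0.61, was under 2-fold, and FOXQ1, at -0.02, could not be set apart from LACZ. The gap between the SNAI1 and ZEB2 arrays was 1.41. SUPT3H, a gene of a transcription coactivator complex that overlaps RUNX2, differed from LACZ by -1.68, -0.43, 0.91 and -0.16 in the FOXQ1, SNAI1, TWIST1 and ZEB2 lines. It was therefore not called on the 2 arrays where RUNX2 was.

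TWIST2 and SOX4 were called on 0 of the 4 factor arrays. TWIST2, the close relative of TWIST1 also known as Dermo1, lies on chromosome 2 from 238848085 to 238910534, with levels of 6.86 in LACZ, 6.99 in FOXQ1, 6.82 in SNAI1, 7.1 in TWIST1 and 7.02 in ZEB2. These span 0.28, and 13164 of 14916 genes had a wider range. SOX4, a high-mobility-group factor that acts in TGF-beta signalling, lies on chromosome 6 from 21593751 to 21598619, with levels of 4.66 in LACZ, 4.3 in FOXQ1, 4.63 in SNAI1, 5.11 in TWIST1 and 4.74 in ZEB2. It sits at the floor, which 2 of the 5 arrays reached, so a probe set that responds poorly and a gene that does not change cannot be told apart here. The TWIST2 values lie above the floor but equally do not show that its RNA was unchanged.

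**Figure D3:**
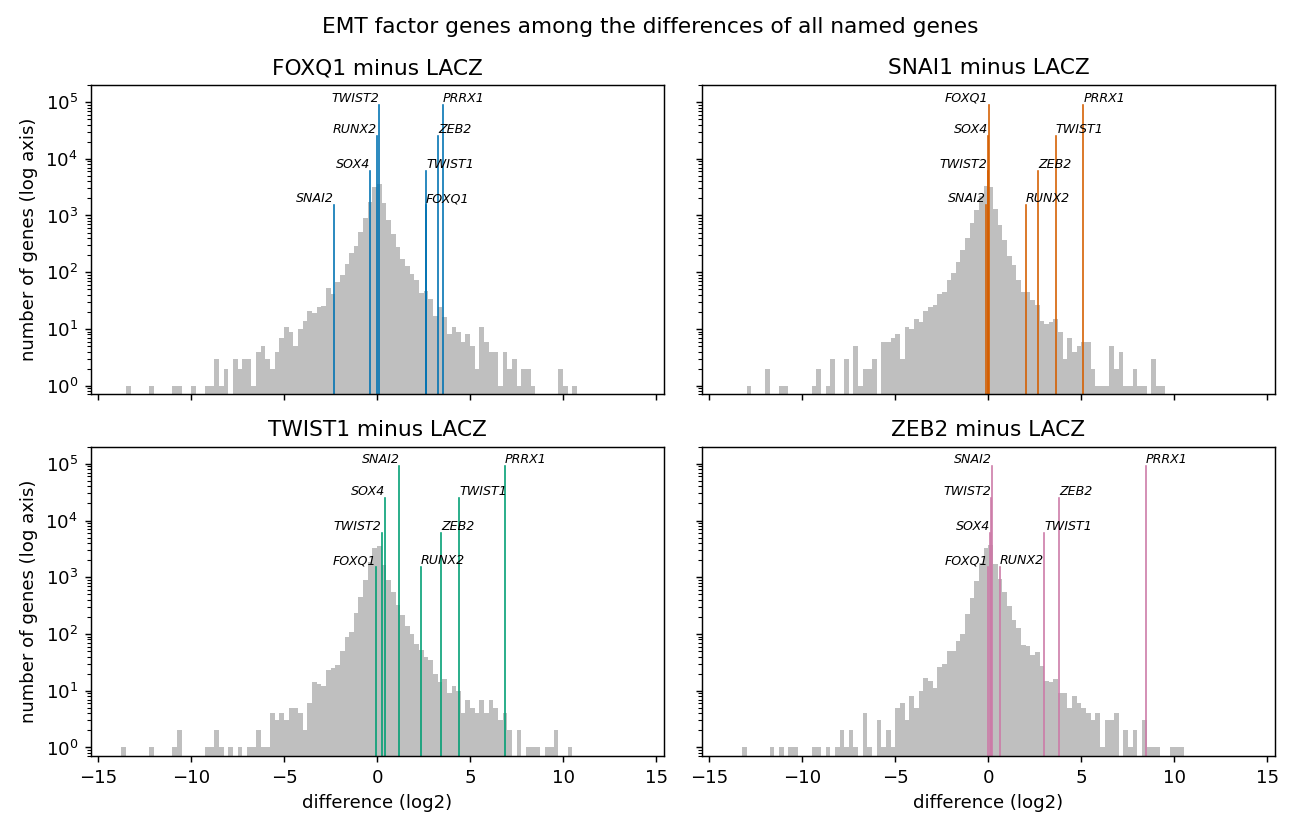
Histograms of the difference from LACZ (x axis, log2) over 14916 named genes (y axis, number of genes on a log axis), 1 panel per factor array, with a vertical line for each EMT factor gene, whose height carries no value. PRRX1 lies furthest to the right of the 8 on all 4 arrays, and on ZEB2 only 6 genes had a larger difference.

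Genes next to the 8 factors on the chromosome were also read. Of 17 nearest or overlapping protein-coding neighbours in RefSeq, 15 were measured and 5 were called on at least 1 factor array, as were 23.3% of all named genes. HDAC9, a histone deacetylase gene beside TWIST1, was called lower on all 4, at -1.28, -1.73, -1.07 and -1.13 in the FOXQ1, SNAI1, TWIST1 and ZEB2 lines, where TWIST1 was higher. GORAB and MROH9, on either side of PRRX1, lay within 0.31 of LACZ on every array, but MROH9 was below the floor on all 5. ASB1, beside TWIST2, was higher by 1.44 in TWIST1 and 2.45 in ZEB2. QTMAN, beside ZEB2, was higher by 2.22 in FOXQ1, and SUPT3H was lower there. CLXN, beside SNAI2, was the last of the 5, at -3.47 in FOXQ1, -1.84 in SNAI1, -0.94 in TWIST1 and -2.25 in ZEB2, so that it was low on FOXQ1 together with SNAI2 but not high on TWIST1.

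The genes whose 4 differences from LACZ lay nearest to those of a factor were found by root mean square distance over the 4 differences, among the 3482 genes called on at least 1 array. Nearest to TWIST1 were PTPRG, a receptor tyrosine phosphatase, at a distance of 0.3, SEMA5A, a semaphorin, at 0.44, and CCDC85A at 0.46. Nearest to ZEB2 were GLRX, the redox enzyme glutaredoxin, at 0.09, TACC1, a coiled-coil protein of the centrosome, at 0.36, and ANKRD50, an endosomal protein, at 0.42. GLRX differed by 3.3, 2.5, 3.56 and 3.82, against 3.28, 2.66, 3.46 and 3.82 for ZEB2. FOXQ1 lay nearest to KANSL1L at 0.12, PER3, a circadian clock gene, at 0.23, and TMEM106B, a lysosomal membrane protein, at 0.29.

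PRRX1 had no gene as near: ACKR1, a decoy receptor of chemokines, lay at 1.11, TOX, a high-mobility-group factor, at 1.13, and HHIP, an inhibitor of hedgehog signalling, at 1.37. The distance is not scaled to the size of the differences, and few genes differed as much as PRRX1. Its larger distances therefore need not set it apart. Nearest to SNAI2 were SLC20A1, a phosphate transporter, at 0.31, CAMK4, a calcium-dependent kinase, at 0.38, and SUPT3H at 0.42. Nearest to RUNX2 were GLIS1, a zinc finger factor, at 0.23, SNORA63, a small nucleolar RNA, at 0.3, and CYP1B1, a cytochrome P450, at 0.54. With 4 values per gene that share a control, such likeness is a description of these arrays.

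Other transcription factors linked to the mesenchymal state were examined as a list, and 21 of its 23 genes were measured. In the FOXQ1, SNAI1, TWIST1 and ZEB2 lines, 3, 3, 5 and 5 of the 21 were called higher and 2, 1, 2 and 1 lower, with medians of 0.09, -0.01, 0.13 and 0.09. Over all genes, 6.54%, 4.26%, 7.27% and 6.4% were called higher and 6.98%, 8.02%, 4.22% and 4.32% lower. GLI2, a hedgehog effector counted as higher on FOXQ1 and ZEB2, differed by 1.69, 0.25, 0.62 and 1.27. Its second probe set differed by 0.62, 0.32, 1.52 and 0.4. Of these 21, 0 were higher on all 4 arrays, and 7 never reached the floor. NR2F1, an orphan nuclear receptor, had levels of 4.08 in LACZ, 5.04 in FOXQ1, 8.35 in SNAI1, 10.06 in TWIST1 and 9.95 in ZEB2. It was therefore high on 3 lines, with FOXQ1 at 0.96, just under the threshold. After quantile normalization the FOXQ1 value was 1.01 and after loess 1, and NR2F1 was then called on all 4 arrays.

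FOSL2, a subunit of the AP-1 factor, differed by 0.8, 1.43, 2.14 and 2.06 in the FOXQ1, SNAI1, TWIST1 and ZEB2 lines. ETV1, an ETS family factor, differed by -2.15, 1.19, 2.31 and 1.14, so that FOXQ1 stood on the other side of LACZ from SNAI1, TWIST1 and ZEB2. SNAI2 was likewise called lower on FOXQ1, but was called higher on TWIST1 only, with SNAI1 at -0.12 and ZEB2 at 0.17. TBX18, a T-box factor of mesenchyme, differed by 3.41, 0.44, 2.14 and 2.45, but its second probe set differed by 1.5, 0.6, 0.79 and 0.25. GLI3, an effector of hedgehog signalling, differed by 1.98, 0.89, 1.83 and 0.73. TFAP2A, a factor of epidermal and neural crest cells, was the 1 gene of the list called lower on all 4, at -1.3, -2.85, -1.18 and -1.57.

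Partners, relatives and inhibitors of the TWIST helix-loop-helix factors were examined because TWIST1 acts as a dimer and ID proteins bind its partners. Of 14 measured, 8 never reached the floor. In the FOXQ1, SNAI1, TWIST1 and ZEB2 lines, 0, 2, 4 and 3 were called higher and 2, 1, 1 and 1 lower. Shares over all genes were 6.54%, 4.26%, 7.27% and 6.4% higher and 6.98%, 8.02%, 4.22% and 4.32% lower. ID2, an inhibitor of helix-loop-helix factors, was at 5.91 in LACZ, 6.35 in FOXQ1, 10.08 in SNAI1, 11.26 in TWIST1 and 8.48 in ZEB2. ID3, its relative, differed by -0.86, 2.17, 3.23 and 2.78. Both were thus high on the 3 lines other than FOXQ1. TWIST1 RNA was above LACZ on every factor array, and the lowest of these was FOXQ1, at 8.2. Any link of TWIST1 to ID2 and ID3 was not tested. MSC, the repressor musculin, differed by -0.07, 0.55, 2.11 and 1.44. HES1, a repressor induced by Notch signalling, was called lower on all 4 arrays, at -1.78, -3.17, -1.77 and -3.28.

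**Figure D4:**
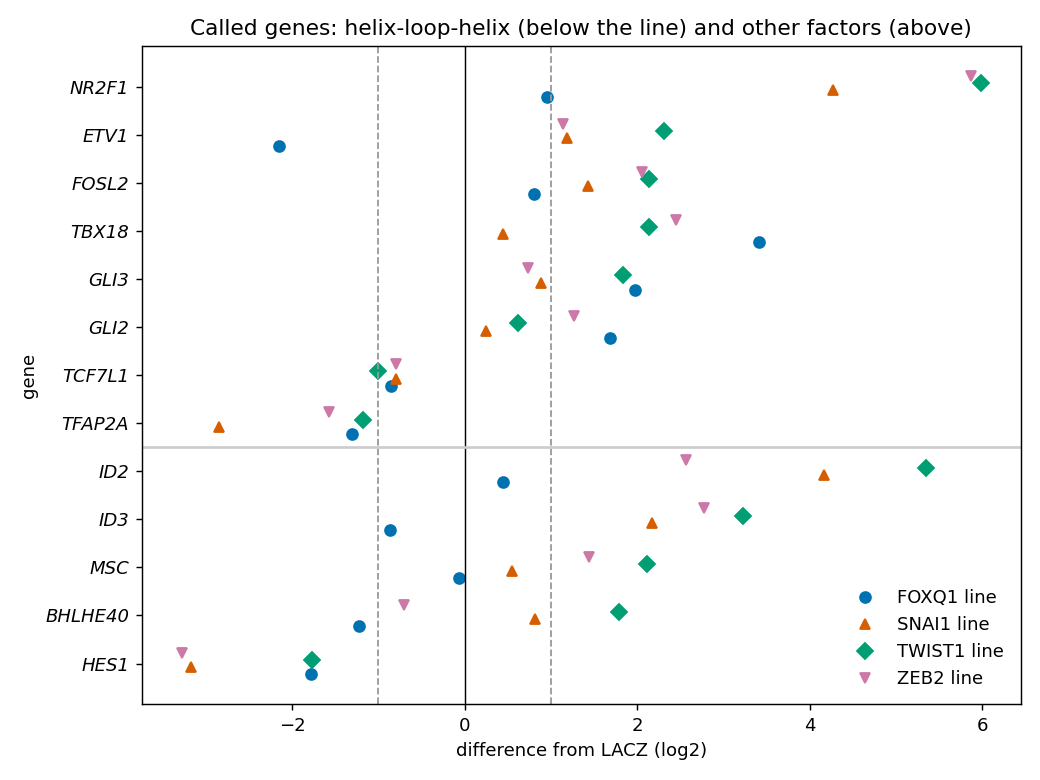
Difference from LACZ (x axis, log2) of the genes called on at least 1 factor array, among helix-loop-helix genes (below the grey line) and other transcription factors linked to the mesenchymal state (above it), 1 point per array, with dashed lines at 1 and -1. For ID2 and ID3 the FOXQ1 points lie within 1 of LACZ, at 0.44 and -0.86, as does NR2F1 at 0.96 as deposited (1.01 after quantile normalization), and for ETV1 the FOXQ1 point lies at -2.15 while the other 3 lie above 1.

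Epithelial genes known to be repressed directly or indirectly by SNAI, ZEB and TWIST factors were examined next. Of 16 measured, 11, 13, 12 and 12 were called lower in the FOXQ1, SNAI1, TWIST1 and ZEB2 lines and 11 on all 4, with medians of -4.32, -3.78, -3.73 and -3.69. Over all genes, 6.98%, 8.02%, 4.22% and 4.32% were called lower in these lines and 2.29% on all 4. The list was drawn up with earlier results of these data known, so its counts describe these genes and do not test them. The 1 higher call was PKP1, the desmosome protein plakophilin, at 1.54 in ZEB2, and CLDN3 and ELF3 stayed below the floor on all 5 arrays. PATJ, a scaffold of the apical polarity complex, was at 10.43 in LACZ, 5.87 in FOXQ1, 5.61 in SNAI1, 6.02 in TWIST1 and 5.45 in ZEB2. CLDN4, a claudin of tight junctions, differed by -2.45, -2.63, -2.84 and -2.69, and PROM2, a membrane glycoprotein of epithelial protrusions, by -1.84, -2.35, -1.7 and -1.6. GRHL1, an epithelial grainyhead factor, differed by -2.45 in SNAI1 and by -0.94 in FOXQ1, the array where it was not called.

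Genes reported under individual factors gave mixed pictures. Of 5 measured genes reported as induced under TWIST1, 3, 3, 4 and 3 were called higher in the FOXQ1, SNAI1, TWIST1 and ZEB2 lines. The same call was made for 6.54%, 4.26%, 7.27% and 6.4% of all genes. COL1A2 is among the 5 and was called on all 4 arrays, but its second probe set differed by 1.38, 2.14, -0.76 and 0.69. PDGFRA, a receptor for platelet-derived growth factors, was at 4.54 in LACZ, 4.37 in FOXQ1, 5.19 in SNAI1, 8.58 in TWIST1 and 5.19 in ZEB2, so it was high on the TWIST1 line alone. CCN1, a matricellular protein, differed by 1.47, 1.54, 2.05 and 1.48. The 4 measured matrix and adhesion genes set beside PRRX1, NID1, COL6A3, LOX and CADM3, were called higher on all 4 arrays, but this list was drawn up knowing that they were high here, so its count supports nothing. COL6A3, a chain of collagen VI, was at 5.7 in LACZ, 9.17 in FOXQ1, 12.65 in SNAI1, 11.33 in TWIST1 and 8 in ZEB2. CADM3, a cell adhesion molecule, was at 4 in LACZ, 9.76 in FOXQ1, 13.48 in SNAI1, 13.67 in TWIST1 and 13.99 in ZEB2. The lowest factor array was thus ZEB2 for COL6A3 and FOXQ1 for CADM3.

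Of 5 measured genes reported under RUNX2, 1 was higher and 1 lower on each factor array. The higher gene was COL1A2, a chain of collagen I, at 7.28, 7.1, 4.52 and 4.56 in the FOXQ1, SNAI1, TWIST1 and ZEB2 lines, while its second probe set differed by 1.38, 2.14, -0.76 and 0.69. The lower gene was VEGFA, an angiogenic growth factor, at -2.51, -1.45, -1.04 and -1.4. SPP1, IBSP and ALPL, genes of the mineralised matrix, stayed below the floor on all 5 arrays. Of 5 genes reported under SOX4, 0, 1, 2 and 1 were called higher and 0 lower. For both lists, the shares over all genes were 6.54%, 4.26%, 7.27% and 6.4% higher and 6.98%, 8.02%, 4.22% and 4.32% lower. EZH2, a histone methyltransferase, lay within 0.51 of LACZ on all 4, but its dimmer second probe set differed by 1.18, -0.42, 1.34 and 0.75. DBN1, the actin-binding protein drebrin, differed by 0.76, 1.27, 2.12 and 2.05.

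Of 8 measured genes of TGF-beta and WNT signalling, inputs upstream of EMT factors, 2, 3, 4 and 2 were called higher and 2, 1, 1 and 1 lower in the FOXQ1, SNAI1, TWIST1 and ZEB2 lines. Shares over all genes were 6.54%, 4.26%, 7.27% and 6.4% higher and 6.98%, 8.02%, 4.22% and 4.32% lower. TGFBR2, the type II TGF-beta receptor, differed by 0.57, 1.01, 1.46 and 0.92. TGFBR3, the coreceptor betaglycan, was at 4.15 in LACZ, 9.82 in FOXQ1, 4.67 in SNAI1, 8.08 in TWIST1 and 6.15 in ZEB2. It was thus highest on FOXQ1, where SNAI2, ID3 and ETV1 were lowest. WNT5A, a noncanonical WNT ligand, differed by 4.74, 3.14, 2.96 and 0.15, and its second probe set stayed below the floor. LINC01117, a long noncoding RNA beside the HOXD cluster, was the 1 of 3 measured noncoding transcripts called, at 1.17 in TWIST1 and 1.09 in ZEB2.

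Stromal fibroblasts also express PRRX1 and TWIST1, so their markers are given beside these results. Of 6 measured fibroblast markers, 4, 3, 5 and 3 were called higher in the FOXQ1, SNAI1, TWIST1 and ZEB2 lines and 0 lower, and each reached the floor on at least 1 array. Over all genes, 6.54%, 4.26%, 7.27% and 6.4% were called higher and 6.98%, 8.02%, 4.22% and 4.32% lower. Their summed log2 level was 36.47 in LACZ, 52.42 in FOXQ1, 54.31 in SNAI1, 58.46 in TWIST1 and 47.35 in ZEB2. PDGFRB, a receptor of pericytes and fibroblasts, differed by 5.08, 3.02, 3.84 and 1.98, and FAP, a fibroblast protease, by -0.78, -0.28, -0.31 and 0.83. COL1A2, COL6A3 and PDGFRA are also members of lists above, so these counts are not separate from those. The second probe set of COL1A2 differed by 1.38, 2.14, -0.76 and 0.69. The part of fibroblasts in the levels of PRRX1 and TWIST1 was not tested.

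All 3 measured endothelial markers stayed below the floor, and their summed level was between 10.44 and 11.08. Of 6 leukocyte markers 4 stayed below it, PTPRC lay between 4.9 and 5.03, and LAPTM5 differed by 4.27 in FOXQ1, 1.11 in TWIST1 and -2.4 in ZEB2. The summed leukocyte level was 25.32 in LACZ, 29.12 in FOXQ1, 23.94 in SNAI1, 26.11 in TWIST1 and 22.53 in ZEB2. Of 5 melanocyte and neural markers 3 stayed below the floor, and MITF, a melanocyte factor, differed by -1.52 in FOXQ1, 1.19 in TWIST1 and 1.02 in ZEB2. NEFM, a neurofilament, differed by 1.15 in SNAI1. The summed level of this list was between 19.3 and 22.06. Of 7 mammary epithelial markers, 6, 6, 6 and 5 were called lower in the FOXQ1, SNAI1, TWIST1 and ZEB2 lines and 1, 1, 1 and 0 higher. Shares over all genes were 6.98%, 8.02%, 4.22% and 4.32% lower and 6.54%, 4.26%, 7.27% and 6.4% higher. The higher marker was MUC1, a mucin of luminal cells, at 3.25, 1.57 and 2.55 in FOXQ1, SNAI1 and TWIST1 and at 0.95 in ZEB2.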

How the data were processed

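RNA of 5 HMLE lines was measured on 1 Affymetrix array each, grouped by the sample titles. The deposited table holds probe set values between 1.99 and 19.73, read here as log2 because the base is not stated. Array medians of 4 to 4.05 were close, and genes were not centred. Among named genes that reached the floor, the median difference from LACZ was -0.01 in FOXQ1, -0.16 in SNAI1, and 0.03 in TWIST1 and in ZEB2. The submitters' processing notes name Transcriptome Analysis Console and hg38, and the normalization method is not given in the sources used here.

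Of 65521 probe sets, 16126 had 1 symbol in the platform annotation, 419 several and 48976 none. Matching to RefSeq (GRCh38.p14) found 15764, and 194 on another chromosome were left out. The other 15570 covered 14916 genes, each represented by its probe set with the highest mean. Calls needed a log2 difference of 1 and a level of 4.72 on the brighter array. The number of arrays limits the precision, and no test was possible.

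Alternatives were centring on the median gene, quantile normalization, loess (span 0.3), the median of probe sets, no floor or a floor at percentile 75, and thresholds of 3-fold and 1.5-fold. The members, the 15 other gene lists and the rules were chosen with earlier results of these data known. Named genes were the 8 members, list genes and, for each called member, the 3 genes nearest in pattern. Neighbouring genes were added after the data were examined. The calling rule was tested on simulated data. The work used pandas 2.3.3 and numpy 2.4.6 in Python 3.11.15, with statsmodels 0.14.6 for loess and matplotlib 3.10.9 for figures.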

Additional observations from a re-analysis of the deposited data

Results flagged for a closer look

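5 of 111 measured list genes were called higher on at least 1 factor array and lower on at least 1 other, as were 0.697% of all named genes. Each line had 1 array, so the differences between lines were not tested. SNAI2 spanned 3.53 between -2.33 on FOXQ1 and 1.2 on TWIST1. ETV1 spanned 4.46 between -2.15 on FOXQ1 and 2.31 on TWIST1, and was also called higher on SNAI1 and ZEB2. BHLHE40, a helix-loop-helix repressor linked to the circadian clock, spanned 3.01 between -1.22 on FOXQ1 and 1.79 on TWIST1. MITF spanned 2.71 between -1.52 on FOXQ1 and 1.19 on TWIST1, and was also called higher on ZEB2. LAPTM5, a lysosomal membrane protein of leukocytes, spanned 6.67 between -2.4 on ZEB2 and 4.27 on FOXQ1, and was also called higher on TWIST1. FOXQ1 was the low side for SNAI2, ETV1, BHLHE40 and MITF, and the high side for LAPTM5.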

How the results depend on the processing

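No paired analysis was possible because each line had 1 array, and for the same reason no replicate could be left out. With the floor at percentile 75, a level of 7.92, the count of EMT factor genes called higher was 1 on FOXQ1 and 1 on all 4 arrays, against 4 and 3. The gene in both was TWIST1, since ZEB2 lay below that level on all 5 arrays and PRRX1 and FOXQ1 lay below it on the FOXQ1 array. SNAI2 on TWIST1 was not called at 3-fold, and RUNX2 on ZEB2 was called at 1.5-fold. The 32 differences of the 8 genes kept their calls under quantile normalization, centring and loess, with shifts of at most 0.21. The median of probe sets could not change these differences, since each of the 8 genes has 1 probe set. The excess of the own line over the next factor line was between 0.58 and 0.79 for TWIST1 and between 0.19 and 0.36 for ZEB2. NR2F1 was called on FOXQ1 after quantile normalization and loess, at 1.01 and 1. Of 960 list counts under the 8 alternatives, 55 moved by more than 1.5 times or to or from 0. Depth could not be assessed, and values below the floor, which is not a measured detection limit, are not put in order here.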
